A study of Mus musculus with 4 samples.

Results

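The difference between Zeitgeber times 12 and 0 (ZT12 and ZT0) was described in cells of low aldehyde dehydrogenase (ALDH) activity from mouse mammary tumours, as measured on 1 microarray at each time. The ZT12 ALDH-low array was set against the ZT0 ALDH-low array, and a gene received a fold change where its brightest probe was well above background on both. Of 37074 gene names on the array, 20682 met this rule, and 13277 of these carried a known gene symbol rather than a predicted, clone or lincRNA name. A further 2407 names were well above background only at ZT0, 1438 only at ZT12 and 12547 on neither array.

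All 4 samples of the study were untreated 4T1 cells from tumours carried by BALB/C mice, an immunocompetent inbred strain. The 4T1 line is an established mouse mammary carcinoma line, and the cells were sorted with the ALDEFLUOR kit, whose fluorescent substrate is retained in cells with active ALDH. The 4 groups were ALDH(-) and ALDH(+) cells, written here as ALDH-low and ALDH-high, at ZT0 and at ZT12, with 1 array a group. The labels give neither the age or number of mice, nor whether tumours were pooled, nor a marker that would have removed host cells in the sort. With 1 array a side there was no replicate error and no test, and genes past a 2-fold difference (1 on the log2 scale) are described as higher or lower on these arrays.

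By convention ZT0 is the hour of lights on and ZT12 the hour of lights off, so the pair of times spans the rest phase of a mouse. In the mammalian clock the activators Bmal1 (gene symbol Arntl) and Clock bind E-box sequences and switch on the Period, Cryptochrome, Rev-erb (Nr1d1, Nr1d2), Dec (Bhlhe40, Bhlhe41) and Ciart genes, whose proteins act back as repressors. The PAR bZIP factors Dbp, Tef and Hlf activate D-box sequences, and Nfil3 represses through the same boxes. In tumours, immune cells as well as carcinoma cells run such clocks, and the number of circulating leukocytes itself follows the time of day.

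The E-box and the D-box were looked for in the 250 bases before each listed start of the clock genes, on both strands, in RefSeq promoters of mouse build GRCm38.p6. The E-box searched was CACGTG, which reads the same on both strands, and it lay in 1978 of 32851 promoters (6.02%). Of 21 genes in the lists of clock activators, repressors and output factors, 18 had a listed promoter, and the E-box lay in 5 of them (Per1, Ciart, Cry1, Tef and Bhlhe41). The D-box, searched as TTATGTAA or its reverse TTACATAA, lay in 269 promoters (0.819%) and in 1 of the 18 clock genes, Per3. A match is a description of the letters and says nothing of binding in these cells.

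The stretches around the matches are shown for 5 clock genes whose levels are described next, 5′ to 3′ on the gene's own strand, with the box in capitals. The Per1 stretch is chr11:69098743-69098828 on the plus strand, with the E-box 166 bases before 1 of the gene's 2 listed starts. The Ciart stretch is chr3:95882229-95882384 on the minus strand and holds 3 E-boxes, the nearest 44 bases before the start. The Cry1 stretch is chr10:85185069-85185154 on the minus strand, with the E-box 60 bases before the start. The Tef stretch is chr15:81802506-81802591 on the plus strand, with the E-box 127 bases before 1 of the gene's 2 listed starts. The Per3 stretch is chr4:151044776-151044910 on the minus strand and holds 2 D-boxes, the nearest 158 bases before the start.
Per1: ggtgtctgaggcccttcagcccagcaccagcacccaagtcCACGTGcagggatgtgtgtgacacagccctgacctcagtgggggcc
Ciart: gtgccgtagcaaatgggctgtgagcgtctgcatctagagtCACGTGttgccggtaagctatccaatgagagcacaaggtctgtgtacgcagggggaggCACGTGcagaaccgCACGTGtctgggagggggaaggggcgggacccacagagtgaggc
Cry1: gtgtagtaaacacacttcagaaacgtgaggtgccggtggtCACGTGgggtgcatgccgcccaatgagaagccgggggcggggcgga
Tef: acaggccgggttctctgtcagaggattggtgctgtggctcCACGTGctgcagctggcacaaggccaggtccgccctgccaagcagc
Per3: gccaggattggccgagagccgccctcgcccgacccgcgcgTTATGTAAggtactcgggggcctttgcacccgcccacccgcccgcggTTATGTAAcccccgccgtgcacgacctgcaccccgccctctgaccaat

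The arrays did not group by their labels, which bears on every value that follows. The ZT0 ALDH-low array lay on slide 1 at position 1_1 and the ZT12 ALDH-low array on slide 2 at position 1_2, so that time, slide and position changed together. The ALDH-high arrays ran the opposite way, with ZT0 at position 1_2 of slide 1 and ZT12 at position 1_1 of slide 2. Over the 20682 genes, the Spearman rank correlation was 0.979 between the 2 arrays at position 1_1, which held ALDH-low cells of ZT0 and ALDH-high cells of ZT12. It was 0.958 between the 2 arrays at position 1_2, which held ALDH-high cells of ZT0 and ALDH-low cells of ZT12. The same correlation was 0.867 between the 2 ALDH-low arrays and 0.854 between the 2 ALDH-high arrays. Each array thus resembled the array of the other time and the other sort gate most. Whether samples were exchanged was not tested, and time, slide and position cannot be told apart in the ALDH-low pair. The 4 samples are therefore named as the libraries labelled ZT0 or ZT12, and the values of all 4 arrays are given for many of the leading genes. Where only an ALDH-low value or difference is given, the ALDH-high cells can run the other way. Between 55.8% and 60.6% of probes on an array were well above background, no probe was saturated, and the processed signal at the 75th percentile ranged from 156.3 to 458.8. Repeated spots of 1 probe had a median log2 SD between 0.038 and 0.0459 within an array, which covers spot error and not the error between samples.

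Levels are given as log2 of the processed signal, less the 75th percentile of the array in question, and a difference is the ZT12 level minus the ZT0 level of the same probe. Among the 20682 genes, 4120 (19.9%) were at least 2-fold higher at ZT12 and 5127 (24.8%) at least 2-fold lower. The counts of list members given below are to be read beside these shares. At a 4-fold limit, 1285 genes (6.21%) were higher and 2199 (10.6%) lower. The median difference was -0.21, with the 5th percentile at -2.66 and the 95th at 2.16. The split of the calls depended on the scaling. Of all genes past 2-fold, 44.6% were higher with the 75th percentile, 73.6% with the array median in its place (all-gene median 0.54) and 25.7% with the 75th percentile of probes well above background on both arrays (all-gene median -0.62).

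Differences also ran with the level of a gene. Genes were split by mean level into 4 equal groups. In the lowest group the median difference was -0.91, and 45.9% of genes were at least 2-fold lower and 5.14% higher. In the highest group the median was 0.49, with 9.11% lower and 35% higher. For 6437 genes with 2 or more probes well above background on both arrays, the ZT12 minus ZT0 differences of the 2 brightest probes were compared. The median gap between these differences was 0.4, and 5% of genes had a gap over 2.45. Of 2711 such genes past 2-fold by the brightest probe, the second probe had the same sign in 86% and passed 2-fold in the same direction in 60%.

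**Figure D1:**
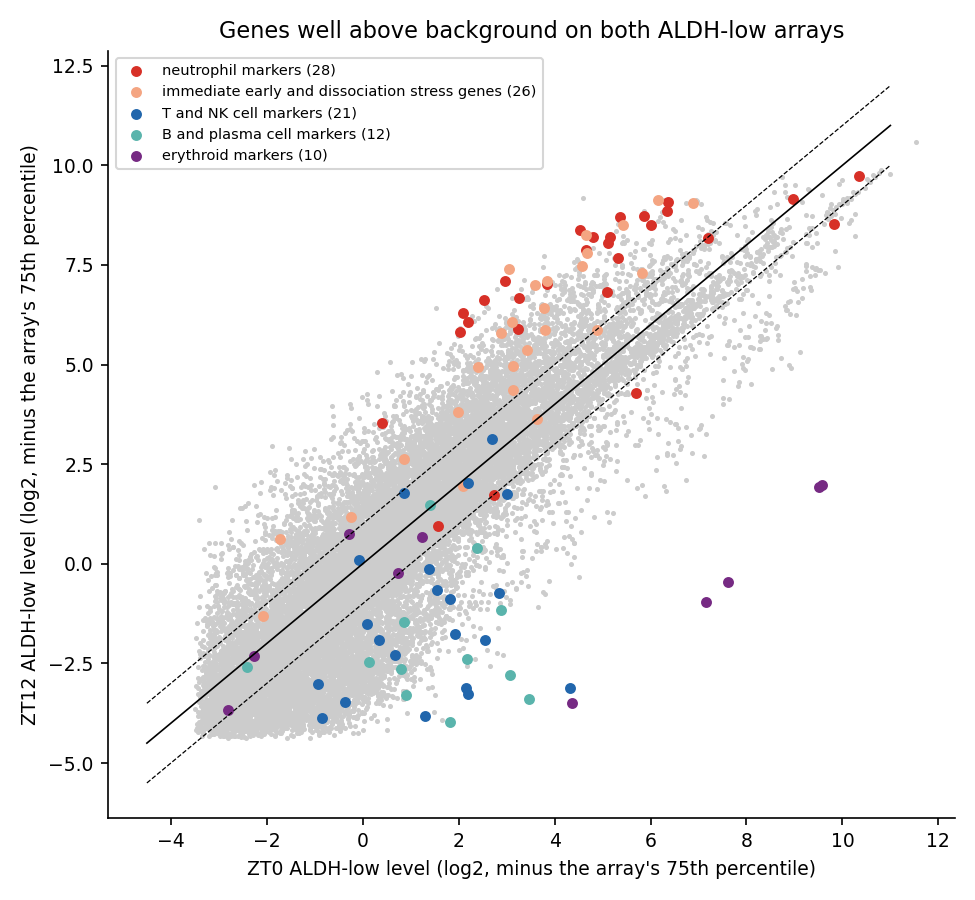
Level of each of the 20682 genes on the ZT0 ALDH-low array (x axis, log2, scaled to the 75th percentile) and on the ZT12 ALDH-low array (y axis, same unit), with all genes in grey, members of 5 lists in colour, a solid line of equal level and dashed lines at 2-fold. Most of the 28 neutrophil genes lie above the upper dashed line, and the 5 globins lie far below the lower one.

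Most differences ran the opposite way in the ALDH-high cells. Of 19285 genes well above background on all 4 arrays, 3986 were at least 2-fold higher at ZT12 in ALDH-low cells, and 3507 of these (88.0%) were at least 2-fold lower at ZT12 in ALDH-high cells. Of 4737 genes lower at ZT12 in ALDH-low cells, 3400 (71.8%) were higher in ALDH-high cells. Across genes, the differences of the 2 gates had a Pearson correlation of -0.87 and a Spearman correlation of -0.884, given as a description since genes of 1 array share that array. When arrays of the same position were set against each other, which crosses the sort gates, fewer genes differed. At position 1_2, 15.6% of genes differed by at least 2-fold between ZT12 ALDH-low and ZT0 ALDH-high, and at position 1_1, 3.47% differed between ZT12 ALDH-high and ZT0 ALDH-low. The same share was 45.2% within ALDH-low and 50.1% within ALDH-high cells.

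**Figure D2:**
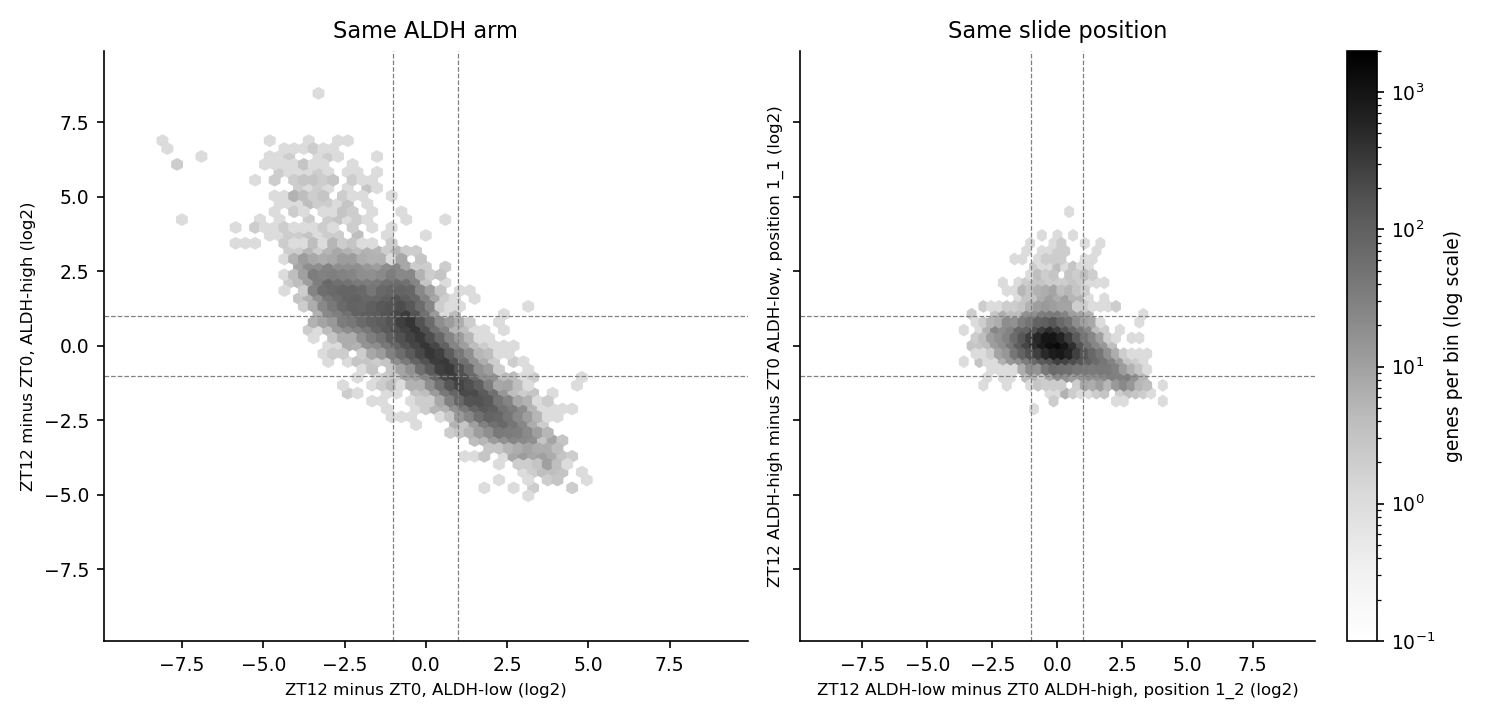
Left, the ZT12 minus ZT0 difference of each gene in ALDH-low cells (x axis, log2) against that in ALDH-high cells (y axis, log2) and, right, the ZT12 minus ZT0 difference at position 1_2 (x axis, log2) against that at position 1_1 (y axis, log2), for 19285 genes above background on all 4 arrays, with the shade giving genes per bin on a log scale and dashed lines at 2-fold. The cloud on the left runs from upper left to lower right, with a Pearson correlation of -0.87.

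Most repressors of the clock were higher at ZT12 in ALDH-low cells. Of 9 measured, 6 were at least 2-fold higher at ZT12 and 1 lower, with a median difference of 1.84, against 19.9% of all measured genes higher and an all-gene median of -0.21. The median kept its sign under all 11 alternative settings tried, between 1.06 and 2.59. These settings compare the same 2 arrays and cannot replace a replicate. Over the 8 repressors measured on all 4 arrays, the median was 1.87 in ALDH-low and -1.03 in ALDH-high cells. Per1, whose protein binds Cry proteins in the repressor complex, had a level of 2.37 at ZT0 and 5.66 at ZT12 in ALDH-low cells, and of 5.32 at ZT0 and 3.10 at ZT12 in ALDH-high cells. Per2, its partner in the same complex, had levels of -0.88 and 2.38 in ALDH-low cells and of 1.61 and 0.11 in ALDH-high cells. Ciart, a repressor of Clock and Bmal1 activity, had levels of -2.20 and 1.06 in ALDH-low cells and of 0.30 and -0.60 in ALDH-high cells. In each of the 3 genes the ZT12 ALDH-low array was the highest of the 4 and the ZT0 ALDH-low array the lowest, and the time difference in ALDH-low cells was 3.29 for Per1, 3.26 for Per2 and 3.26 for Ciart.

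Of the Cryptochrome and Dec genes, Cry1 and Bhlhe40 were also higher at ZT12. Cry1, a core repressor, rose from -2.56 to -0.65, a difference of 1.91, and read -0.68 at ZT0 and -1.69 at ZT12 in ALDH-high cells. Bhlhe40 (Dec1) rose by 1.84, from 2.61 to 4.45, with 3.93 and 2.87 in ALDH-high cells. Cry2 differed by 1.19 on its brightest probe, but another probe of the gene gave -1.47, so its direction is uncertain. Per3, the Period gene with D-boxes in its promoter stretch, was lower at ZT12 by its brightest probe, with a difference of -1.94, and another probe gave 0.02. Nr1d1 (Rev-erb alpha) differed by 0.09 and Nr1d2 (Rev-erb beta) by -0.81, both within 2-fold. Nr1d1 changed sign under 2 of 7 scalings. Bhlhe41 (Dec2) was not well above background at ZT12 and was at least 3.4-fold lower there. Such bounds set the bright array against the weakest signal that still counted as well above background on the dim array, or the probe's own signal where that was higher.

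The activators and the ROR receptors, which drive Arntl, were lower or little changed. Of 5 measured, 0 were higher and 1 lower past 2-fold, beside 24.8% of all measured genes lower. The median was -0.91, against an all-gene median of -0.21. Rora, a nuclear receptor that activates Arntl, was 1.84 at ZT0 and -0.52 at ZT12 in ALDH-low cells, a difference of -2.36, and -0.41 and 1.97 in ALDH-high cells. Arntl itself read -1.02 and -2.02 in ALDH-low cells, a difference of -1.0 that fell just short of 2-fold before rounding, and -2.48 and -1.71 in ALDH-high cells. The differences of Arntl2 and Clock were -0.91 and -0.89, and another Clock probe gave 0.59. Rorb was well above background only at ZT0, at least 7.37-fold lower at ZT12, and Npas2, the paralogue of Clock, was above background on none of the 4 arrays. The signs of Rora, Arntl, Arntl2 and Clock did not turn under any of 7 scalings.

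Among the output factors Nfil3, the D-box repressor, was 4.20 at ZT0 and 7.21 at ZT12 in ALDH-low cells, a difference of 3.01, and 6.95 and 5.17 in ALDH-high cells. Dbp, the D-box activator, was 0.66 at ZT0 and 1.59 at ZT12 in ALDH-low cells and 0.16 and 1.41 in ALDH-high cells. Its differences of 0.94 and 1.25 thus had the same sign in both gates, unlike those of Per1, Per2, Cry1 and Nfil3. Tef differed by 0.26 in ALDH-low cells, with disagreeing probes and a sign that turned under 4 of 7 scalings, and by 1.74 in ALDH-high cells. Hlf was not well above background at ZT12 and was at least 3.4-fold lower there.

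Of the 7 measured genes that modify clock proteins, 3 were higher at ZT12 and 0 lower. Usp2, a deubiquitinase under clock control, differed by 2.66, from -1.06 to 1.60. The casein kinase Csnk1e, which phosphorylates Period proteins, differed by 1.67. Gsk3b (0.90), Csnk1d (0.36) and Btrc (-0.12) lay within 2-fold, and the last pair changed sign under 4 of 7 scalings. Fbxl21 was above background only at ZT12. Of the cold-inducible RNA-binding proteins, Cirbp differed by 0.83 and Rbm3 by 0.25, both within 2-fold.

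Within array positions, where ZT12 and ZT0 came from opposite gates, the clock genes differed less. The counts that follow are of signs, of any size, and most of the differences lay within 2-fold. Of the 8 repressors measured on all 4 arrays, 5 had a positive difference at both positions (Per1, Per2, Cry1, Ciart and Bhlhe40) and none a negative one at both. All 3 measured output factors, Dbp, Tef and Nfil3, were positive at both positions, none of the 5 activators and RORs was, and of the 7 modifiers 1 was positive and 3 were negative at both. Among all 19285 genes, 15.7% were positive at both positions. Lists other than those of clock genes also held many such genes, with 37 of 51 cytosolic ribosomal proteins and 15 of 23 monocyte and macrophage markers. Per1 differed by 0.34 at position 1_2 and 0.73 at position 1_1, Per2 by 0.77 and 0.99, and Dbp by 1.43 and 0.75. These contrasts mix the gate with the time and have no replicate.

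**Figure D3:**
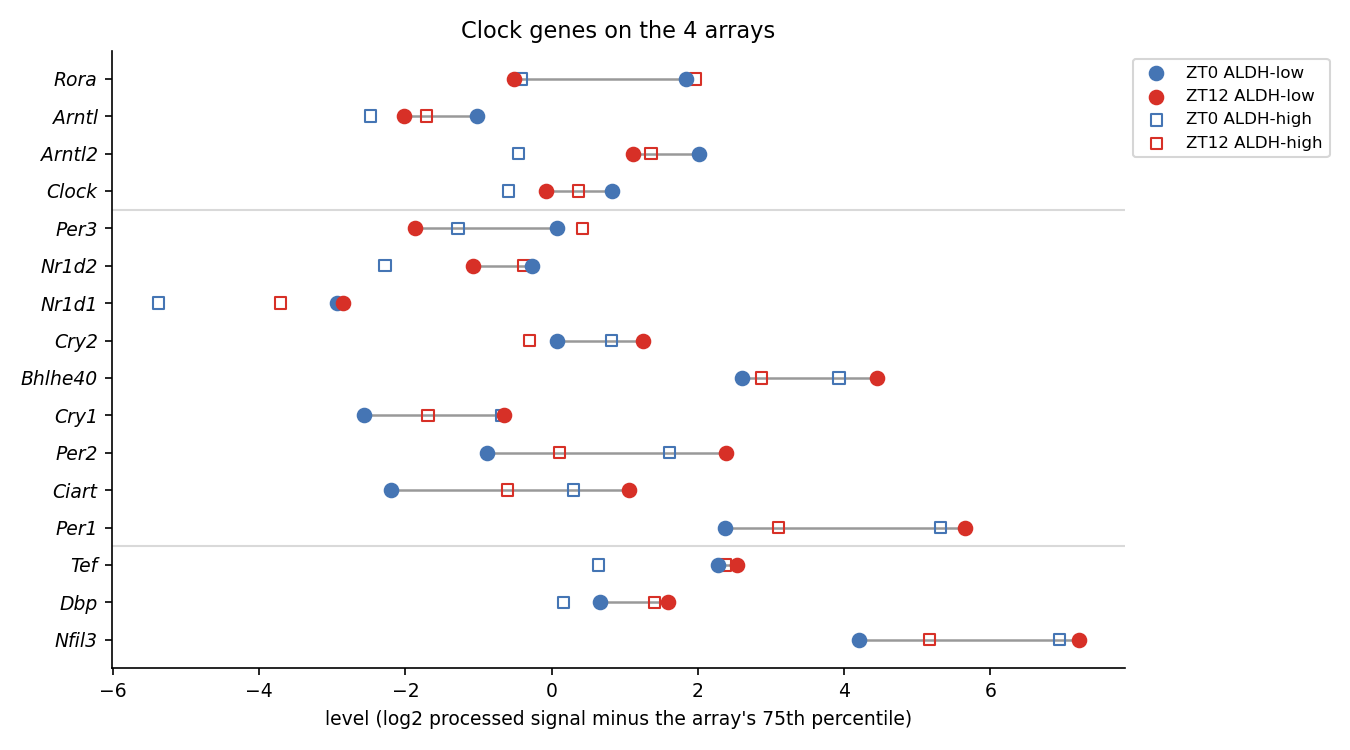
Levels of clock genes (x axis, log2, scaled to the 75th percentile) on the 4 arrays, by gene (y axis), with filled circles for ALDH-low and open squares for ALDH-high cells, blue for ZT0, red for ZT12, and a grey line joining the 2 ALDH-low arrays. Per1 goes from 2.37 to 5.66 in ALDH-low cells and from 5.32 to 3.10 in ALDH-high cells, while the difference of Dbp is positive in both.

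Genes of neutrophils, the phagocytes that 4T1 tumours are known to recruit in large numbers, formed the list with the highest median. Of 28 measured, 21 were higher at ZT12 and 2 lower, with a median difference of 2.90. The formyl peptide receptor Fpr1 had levels of 2.09 at ZT0 and 6.30 at ZT12 in ALDH-low cells and of 6.54 and 2.93 in ALDH-high cells. The collagenase Mmp8 read 2.96 and 7.09 in ALDH-low cells and 7.42 and 3.49 in ALDH-high cells. The chemokine receptor Cxcr2, which guides neutrophil release and recruitment, read 2.52 and 6.61 in ALDH-low cells and 7.31 and 3.29 in ALDH-high cells. In all 3 genes the 2 arrays at position 1_2 were high and the 2 at position 1_1 low. Mrgpra2b differed by 3.88. The exceptions were Mpo, a peroxidase of immature granules, at -1.41, and the growth factor receptor Csf3r at -1.28. The list's median was -2.87 in ALDH-high cells, and -0.33 at position 1_2 and 0.53 at position 1_1. The sum of the list's linear levels, on the log2 scale, was 11.79 at ZT0 and 12.73 at ZT12 in ALDH-low cells. It was 13.24 and 12.25 in ALDH-high cells, so the summed signal changed by less than 2-fold in each gate.

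Genes shared by leukocytes also stood higher at ZT12. Of 12 measured, 10 were higher and 1 lower, with a median of 1.52. Ptprc (CD45, the common leukocyte phosphatase) was 4.48 at ZT0 and 7.14 at ZT12, and 7.66 and 4.66 in ALDH-high cells, although its probes did not share a sign. Cd53, the small GTPase Rac2 and the actin bundler Lcp1 differed by 2.21, 2.19 and 2.18. Cd37, a tetraspanin, was at -1.27, again with probes of both signs. The sum of the list's linear levels, on the log2 scale, was 9.29 at ZT0 and 10.75 at ZT12 in ALDH-low cells, and 11.33 and 9.76 in ALDH-high cells. Leukocyte genes were thus present on every array of a sort meant for 4T1 cells, and in bulk RNA a smaller share of cells of a type and less RNA per cell cannot be told apart. The part of leukocytes in the other differences described was not tested.

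Genes of T and NK cells were lower at ZT12. Of 21 measured on both arrays, 17 were lower and 0 higher, with a median of -2.69, and another 4 were above background only at ZT0. The granzyme Gzma, a serine protease of cytotoxic granules, fell from 4.33 to -3.12, a difference of -7.45, and read 0.20 at ZT0 and 4.34 at ZT12 in ALDH-high cells. Gzmb read 2.20 and -3.27 in ALDH-low cells and -1.16 and 2.38 in ALDH-high cells. Il2rb, a chain of the receptors for IL-2 and IL-15, and Zap70, the kinase of the T cell receptor, differed by -5.28 and -5.12. For all 4 genes the ZT12 ALDH-low array was the lowest of the 4. The members with the opposite sign were Cd4 (0.94, with disagreeing probes) and Cd247 (0.42), both within 2-fold. The list's median was 2.88 in ALDH-high cells, -0.73 at position 1_2 and 0.44 at position 1_1.

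Several lymphocyte genes dropped out of the measured range. The granzymes Gzmc, Gzme and Gzmf were at least 334-fold, 145-fold and 35.7-fold lower at ZT12. Ifng, the interferon of T and NK cells, was at least 29.9-fold lower, Cd3g, a chain of the T cell receptor complex, at least 32.6-fold lower and the GTPase gene Gimap4 at least 28.0-fold lower. Gimap3, of the same lymphocyte family, was measured on both arrays with a difference of -5.23.

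Genes of B cells fell further. Of 12 measured, 10 were lower at ZT12 and 0 higher, with a median of -3.74, and another 3 were above background only at ZT0. Vpreb3, a gene of B cell precursors, read 3.47 at ZT0 and -3.39 at ZT12 in ALDH-low cells, and -3.33 and 3.15 in ALDH-high cells. Cd79b, a signalling chain of the B cell receptor, read 3.06 and -2.80. Vpreb1 of the pre-B receptor differed by -4.55, and Pou2af1, a B cell coactivator, by -5.58. Sdc1, which epithelial cells also express, was at 0.07. The list's median was 2.12 in ALDH-high cells and -1.10 at position 1_2.

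The lowest differences among known gene symbols were those of globins, the oxygen carriers of red cells. Hbb-b2, Hbb-bt and Hbb-b1 differed by -8.10, -8.07 and -7.86, and Hba-a1 and Hba-a2 by -7.60 and -7.59. The Hbb-bt probe (chr7:110961105-110961164, mm9) read 7.62 at ZT0 and -0.45 at ZT12 in ALDH-low cells, and -0.67 and 5.96 in ALDH-high cells. The Hba-a1 probe (chr11:32184427-32184486, mm9) read 9.57 and 1.97 in ALDH-low cells and 1.81 and 8.0 in ALDH-high cells. Within the alpha (Hba) and within the beta (Hbb) family, globin genes are close copies. A probe can thus bind RNA of several genes of its family, and their values are not independent. Of 10 erythroid genes measured, 5 were lower, all of them globins, and 1 higher, the transferrin receptor Tfrc at 1.04, which other dividing cells also use. Another 5 were above background only at ZT0, among them Alas2, the first enzyme of haem synthesis in red cells, at least 149-fold lower at ZT12. The erythroid median was -4.27 over the 10 genes and -0.96 over the 9 measured on all 4 arrays, so its size rests on the globins.

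Genes of monocytes and macrophages did not move as 1 group. Of 24 measured, 10 were lower at ZT12 and 1 higher, with a median of -0.42 whose sign turned under median scaling (0.33). The complement genes C1qa, C1qb and C1qc, made by tissue macrophages, were lower by similar amounts, at -2.84, -2.54 and -2.40. C1qa read 4.95 at ZT0 and 2.11 at ZT12 in ALDH-low cells and 2.25 and 5.17 in ALDH-high cells. Itgam was at -2.21 with disagreeing probes. Cd14, the lipopolysaccharide co-receptor of myeloid cells, was the exception, with 5.51 at ZT0 and 8.12 at ZT12 in ALDH-low cells and 7.84 and 6.30 in ALDH-high cells.

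Genes of dendritic cells and MHC class II, which present peptides to helper T cells, were lower in 10 of 15 cases and higher in 0, with a median of -1.22. Cd209a differed by -2.32, the invariant chain Cd74 by -2.10, H2-DMb1 by -1.97 and H2-Aa by -1.74. Cd74 read 6.78 and 4.68 in ALDH-low cells and 5.10 and 7.30 in ALDH-high cells. The median moved to -0.47, within 2-fold, under median scaling. Clec9a (0.90) and Itgax (0.65, probes of both signs) lay within 2-fold.

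The list of mast cells, basophils and eosinophils held changes of both directions, with 7 lower and 4 higher of 12. The basophil proteases Prss34 and Mcpt8 differed by -3.55 and -2.93, the IgE receptor chain Fcer1a by -2.45 and the IL-5 receptor Il5ra by -2.29. Prss34 read 0.91 at ZT0 and -2.64 at ZT12 in ALDH-low cells, and 0.48 and 0.94 in ALDH-high cells, so that only the ZT12 ALDH-low array stood low. Mcpt8 had the same order, with 1.80 and -1.14 in ALDH-low cells and 1.42 and 2.16 in ALDH-high cells. Siglecf, known from eosinophils, rose by 3.77 instead, from -0.26 to 3.51, and Kit was at 3.39 with disagreeing probes. The list's median of -1.85 turned to 1.38 when it was taken only over genes above the median level. Of 7 platelet genes, 1 was higher (Clec1b, 3.20) and 2 lower (Pf4, -1.43, and Gp6, -1.12).

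**Figure D4:**
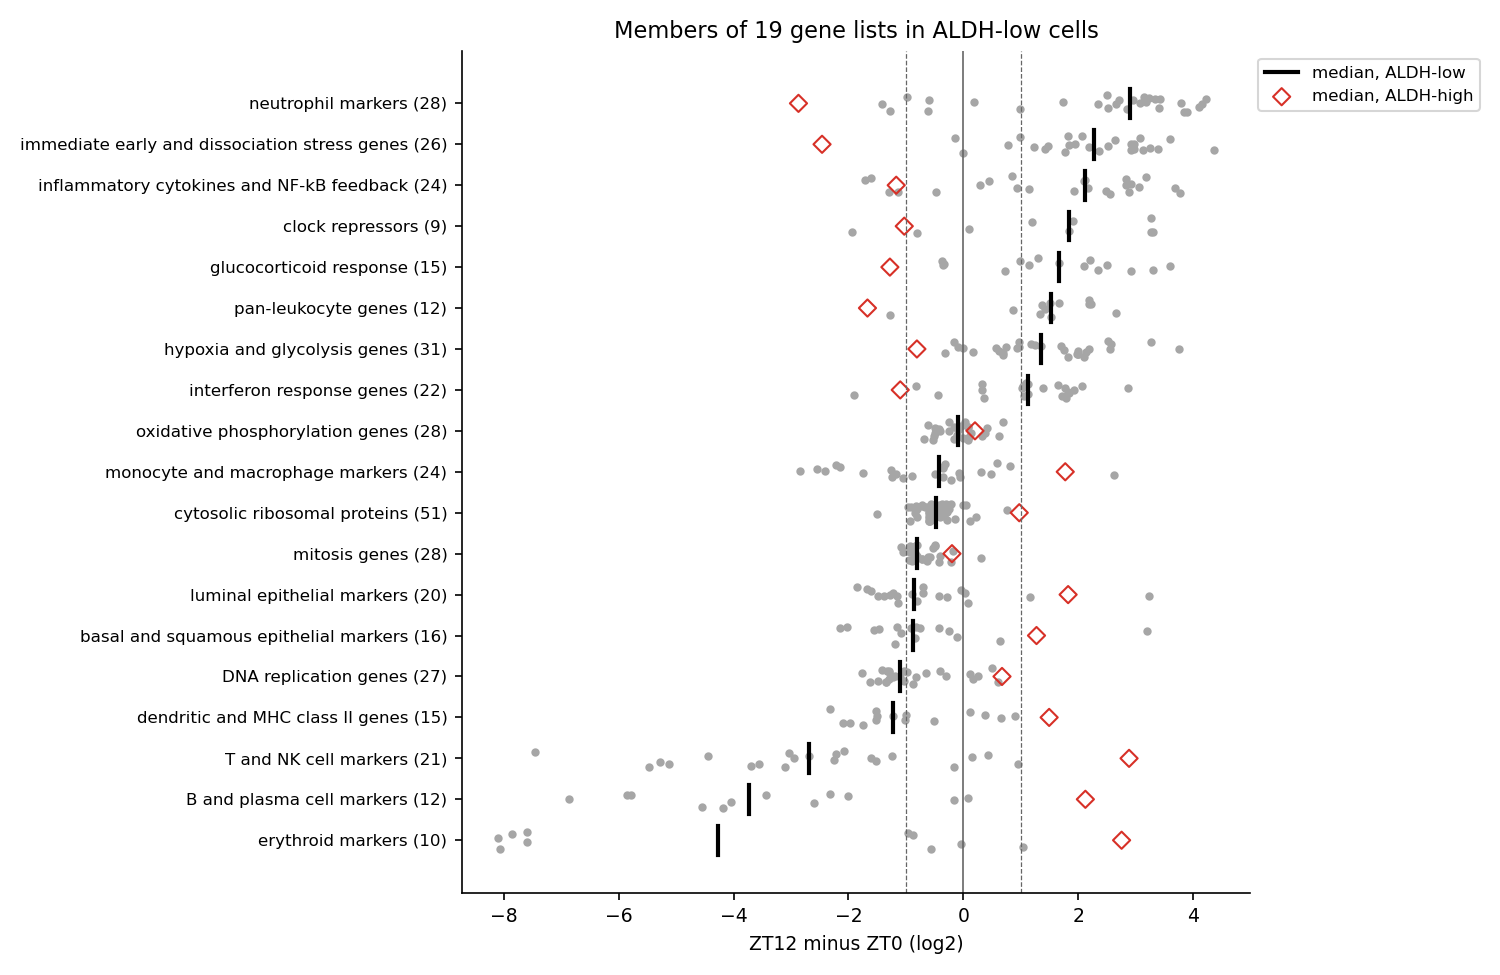
ZT12 minus ZT0 difference (x axis, log2) of the members of 19 gene lists (y axis, number measured in brackets) in ALDH-low cells as grey points, with their median as a black bar and the median of ALDH-high cells, over members above background on all 4 arrays, as a red diamond. The neutrophil list lies at 2.90 in ALDH-low and -2.87 in ALDH-high cells, and the T and NK cell list at -2.69 and 2.88.

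Immediate early genes, which are switched on within minutes by growth factors, stress or tissue dissociation, were higher at ZT12 in 22 of 26 cases and lower in 0, with a median of 2.27. Egr1, a zinc finger factor, read 3.05 at ZT0 and 7.41 at ZT12 in ALDH-low cells, and 7.27 and 3.53 in ALDH-high cells. Dusp1, a phosphatase that ends MAP kinase signalling, read 4.65 and 8.25 in ALDH-low cells and 8.25 and 5.33 in ALDH-high cells. Klf2 differed by 3.39 and the mRNA decay factor Zfp36 by 3.24. The exception in sign was Nr4a2 at -0.15. As with the neutrophil genes, both arrays at position 1_2 were high, and the list's median was -2.46 in ALDH-high cells, -0.19 at position 1_2 and 0.27 at position 1_1.

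Genes of the glucocorticoid response were included because corticosterone in mice peaks near lights off. Of 15 measured, 10 were higher at ZT12 and 0 lower, with a median of 1.66. Dusp1, Per1 and Lcn2 (2.49) also belong to the lists above, Lcn2 to that of neutrophils. Tsc22d3 (Gilz, a mediator of the anti-inflammatory effect of glucocorticoids) differed by 2.92. Tsc22d3 read 2.84 and 5.76 in ALDH-low cells and 5.48 and 3.48 in ALDH-high cells. Zbtb16 (-0.37) and Mt1 (-0.35, with disagreeing probes) lay within 2-fold. The list's median was -1.28 in ALDH-high cells, 0.28 at position 1_2 and 0.33 at position 1_1.

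Inflammatory cytokines and NF-kB feedback genes were higher in 15 of 24 cases and lower in 4, with a median of 2.10. The neutrophil attractant Cxcl2 read 3.36 at ZT0 and 7.12 at ZT12 in ALDH-low cells, and 6.19 and 4.40 in ALDH-high cells. Cxcl3, of the same family, read 2.49 and 5.55 in ALDH-low cells, and 4.16 and 3.75 in ALDH-high cells. Nfkbiz, an inducible NF-kB cofactor, differed by 3.68 and the cytokine Osm by 3.18. The chemokines Ccl5 and Ccl7 were lower, at -1.71 and -1.61. Other chemokines of the same family in the list, added after their values were seen, did not share this direction, with Ccl3 at 2.88, Ccl4 at 2.54 and Ccl2 at -0.47. Within positions the list's median was 0.57 at position 1_2 and 0.38 at position 1_1.

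Interferon response genes were higher in 16 of 22 cases and lower in 1, with a median of 1.13. The RNA sensor Oas2 differed by 2.86, the factor Irf1 by 2.06, Ifit1 by 1.92 and the GTPase Gbp2 by 1.83. Cxcl9, a chemokine that interferon gamma induces, was the member that was lower, at -1.91, and read -0.38 at ZT0 and -2.29 at ZT12 in ALDH-low cells and -1.93 and 0.40 in ALDH-high cells. Bst2 (-0.83) lay within 2-fold. The interferon median fell to 0.71, within 2-fold, with the 75th percentile of probes well above background on both arrays.

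Hypoxia and glycolysis genes were higher in 18 of 31 cases and lower in 0, with a median of 1.34. The glucose transporter Slc2a3 read 1.98 at ZT0 and 5.72 at ZT12 in ALDH-low cells, and 6.27 and 2.44 in ALDH-high cells. Pfkfb3, which makes the allosteric activator of glycolysis, read 3.39 and 6.65 in ALDH-low cells and 6.02 and 4.12 in ALDH-high cells. The oxygen sensor Egln3 differed by 2.57 and the lactate exporter Slc16a3 by 2.55. Car9 (-0.32) and Hk1 (-0.17, probes of both signs) lay within 2-fold. At the positions the list's median was 0.34 and 0.28, within 2-fold. The median fell to 0.93 with the 75th percentile of probes well above background on both arrays.

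Stress pathways were mixed. Of 19 genes of the unfolded protein and integrated stress responses, 8 were higher and 4 lower. The chaperone Dnajb9 differed by 3.49, Sesn2 by 2.62, the asparagine synthetase Asns by 2.09 and the factor Xbp1 by 2.04, whereas Sdf2l1 was at -1.83 and the serine synthesis enzyme Phgdh at -1.72. Of 27 NRF2 and glutathione genes, 11 were higher and 3 lower, with the cystine transporter Slc7a11 at 2.55, G6pdx at 2.40, Nfe2l2 (NRF2 itself) at 2.36 and Pgd at 1.88, and with Gpx2 at -2.87 and Gsta4 at -1.72. Of 19 heat shock genes, 7 were lower and 0 higher. The small chaperone Hspb1 read 3.63 and 0.49 in ALDH-low cells, a difference of -3.15, and Hsph1, Hspa1b and Hspa4l differed by -1.40, -1.30 and -1.29, the last with disagreeing probes. Dnaja1 (0.88) and Hspa5 (0.80) lay within 2-fold.

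Epithelial genes, which 4T1 cells express, were present on every array and were lower at ZT12 in part. Of 20 luminal genes, 9 were lower and 2 higher, with a median of -0.86, and of 16 basal and squamous genes, 7 were lower and 1 higher, with a median of -0.88. The adhesion molecule Epcam read 0.49 at ZT0 and -1.18 at ZT12 in ALDH-low cells, and -2.98 and -0.24 in ALDH-high cells. The basal keratin Krt14 read 3.97 and 1.82 in ALDH-low cells, and -0.64 and 3.14 in ALDH-high cells. For both genes the ZT0 ALDH-high array was the lowest and the ZT0 ALDH-low array the highest. Cldn4, St14 and Krt7 differed by -1.85, -1.61 and -1.48 among luminal genes, and Dsg2, Trp63 and Sfn by -2.03, -1.55 and -1.47 among basal genes. Of the 2 higher luminal genes Muc1 was the smaller change, at 1.16, and Krt17 (0.63) lay within 2-fold. Both medians approached 0 under median scaling (-0.11 and -0.13) without changing sign. At position 1_2 the medians were 1.69 and 1.77, higher at ZT12, and at position 1_1 they were -0.62 and -0.59.

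Krt6a, a keratin of stressed and wound-edge epithelium, was the basal gene that ran against its list. It read -2.93 at ZT0 and 0.26 at ZT12 in ALDH-low cells, and -3.03 and -1.84 in ALDH-high cells. It was higher at ZT12 in both gates, and the ZT12 ALDH-low array was the highest of the 4.

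Mesenchymal and stromal lists were split. Of 21 mesenchymal transition genes, 3 were higher and 3 lower. The growth factor Tgfb2 differed by -2.85 and N-cadherin (Cdh2) by -2.46, with Tnc (-1.04) also past 2-fold and Lox (-0.90) within it. The transcription factor Zeb1 rose instead, by 2.76, from -2.64 to 0.12. The gelatinase Mmp9, which is also in the neutrophil list, rose by 2.65, from 3.24 to 5.88. Of 16 fibroblast genes, 7 were lower and 3 higher, led by Thy1, which T cells also carry, at -4.09, with Postn at -2.08, Col1a1 at -1.72 and Col6a2 at -1.48, and with Pi16 at 2.70 and Fap at 1.70 the other way. Col1a1 read 2.88 and 1.16 in ALDH-low cells and 2.32 and 1.96 in ALDH-high cells. The log2 sum of the fibroblast list's linear levels ran against these counts, with 6.79 at ZT0 and 7.85 at ZT12 in ALDH-low cells. In ALDH-high cells it was 8.43 and 6.6. Of 8 endothelial genes, 4 were lower and 0 higher, among them the VEGF receptor Kdr at -1.84, with Egfl7 at -1.42, Eng at -1.27 and Flt1 at -1.04. Vwf (0.65, probes of both signs) and Pecam1 (0.51) lay within 2-fold. Of 16 metalloproteinases and inhibitors, 5 were higher, led by Mmp8 at 4.14 and Mmp25 at 3.87, and 4 lower, Timp4 at -3.07, Timp3 at -2.63, Mmp12 at -1.77 and Mmp13 at -1.68.

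The aldehyde dehydrogenases, whose activity the sort reads, had no common direction. Of 16 measured, 6 were higher at ZT12 and 3 lower, with a median of 0.04. The median was -0.50 over the 15 genes measured on all 4 arrays and 1.15 over genes above the median level, and its sign turned under 3 of the 11 alternatives. Aldh1a1, an enzyme of retinoic acid synthesis, read -0.35 at ZT0 and -2.77 at ZT12 in ALDH-low cells, and -1.91 and -1.52 in ALDH-high cells, so that the ZT0 ALDH-low array was the highest of the 4. Aldh1l2 differed by -2.46. Aldh1a2, Aldh3b1, Aldh4a1 and Aldh3a2 differed by 2.33, 2.14, 1.65 and 1.34. Aldh3a1 was at 0.94, within 2-fold. Aldh1a3 was well above background only on the ZT12 ALDH-low array and at least 1.09-fold higher there than at ZT0, which is close to no bound.

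Of the Wnt genes, the ligand Wnt10a read -0.63 at ZT0 and 0.00 at ZT12 in ALDH-low cells, a difference of 0.63 that lay within 2-fold, and it was not well above background on the ZT0 ALDH-high array. Of 9 measured ligands, 3 were lower (Wnt5a, -1.34, Wnt7a, -1.22, and Wnt10b, -1.11) and 1 higher (Wnt5b, 2.09, with disagreeing probes), and another 4 were above background only at ZT0. Wnt9a (-0.98) lay within 2-fold. Of 18 receptors and targets, 6 were lower and 0 higher. Among all measured genes, 24.8% were lower and 19.9% higher, so the Wnt counts of lower genes are not far from that share. The count of 0 higher receptors and targets lay below its share, and another 3 were above background only at ZT0. Their median was -0.75, which moved to 0 under median scaling. Lef1, a factor of Wnt signalling that lymphocytes also express, read 1.51 and -3.30 in ALDH-low cells, and the stem cell receptor Lgr5 read 0.17 and -3.88. Tcf7, another factor that T cells express, was at -2.05 and the receptor Fzd4 at -1.87.

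In the other developmental pathways calls ran in both directions, beside 19.9% of all measured genes higher and 24.8% lower. Of 9 Notch genes, 4 were higher, Notch2 (2.45), Notch3 (1.46), Rbpj (1.09) and Notch4 (1.03), and 1 lower, Notch1, at -3.03 with probes of both signs. Of 7 Hedgehog genes, 1 was higher and 1 lower, Ptch1 at -2.64. Of 12 YAP genes, 3 were higher, with F3 at 3.73 and Lats2 at 2.02, and 1 lower, Tead1 at -3.26. Of 16 mammary stem and tumour-initiating markers, 5 were lower, with Sox9 at -1.53, Sox10 at -1.18 and Ly6a at -1.07 besides Lgr5, and 3 higher, among them Cd44, a hyaluronan receptor that leukocytes also carry, at 2.21.

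Proliferation genes were lower or within 2-fold. Of 27 DNA replication genes, 16 were lower at ZT12 and 0 higher, with a median of -1.10, and of 28 mitosis genes, 2 were lower, Cdk1 at -1.09 and Aurkb at -1.05, with Birc5 (-1.0) and Cenpe (-0.94) next to the limit. The replication factor Gins2 read 1.98 at ZT0 and 0.21 at ZT12 in ALDH-low cells, and -0.24 and 2.32 in ALDH-high cells. Thymidine kinase (Tk1), Uhrf1 and the helicase subunit Mcm3 differed by -1.63, -1.49 and -1.41, and Mcm10 (0.60) and Ung (0.49) lay within 2-fold. Of the 28 mitosis genes, 15 had a negative difference of any size in both gates, as did 5.98% of all 19285 genes, and 21 a negative difference at both positions, as did 22.6% of all. The replication median moved to -0.35, within 2-fold, under median scaling, and the mitosis median to -0.05.

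Genes of respiration, the proteasome and the ribosome gave few calls. Of 28 oxidative phosphorylation genes none passed 2-fold. Of 31 proteasome genes 1 passed 2-fold (Psmb2, -1.05), as did 1 of 51 cytosolic ribosomal proteins. The ribosomal median of -0.47 turned to 0.28 under median scaling and passed 2-fold, at -1.12, with the spike-in slope. Of 23 cholesterol synthesis genes, 3 were higher, among them Sc5d (1.22) and Srebf2 (1.07), and 1 lower, Dhcr7 (-1.48). Of 15 housekeeping genes, 5 were higher, among them Polr2a at 1.86 with disagreeing probes and Tbp at 1.49, and 0 lower, with a median of 0.35, beside 19.9% of all genes higher.

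Among 13 named long noncoding RNAs, 2 were higher at ZT12 and 4 lower, beside 19.9% and 24.8% of all measured genes. Neat1, the scaffold of nuclear paraspeckles, read 1.41 at ZT0 and 4.11 at ZT12 in ALDH-low cells, and 3.95 and 1.30 in ALDH-high cells. Meg3, an imprinted RNA, read 1.30 and -1.69 in ALDH-low cells, and -1.04 and 1.53 in ALDH-high cells. Both followed the position, with Neat1 high and Meg3 low at position 1_2. The other leading members were Snhg12 (1.08) and Kcnq1ot1, an imprinted antisense RNA, at -2.30. The 60-base probes that gave the Neat1 and Meg3 values, which say which part of each RNA was read, lie at chr19:5844123-5844182 and chr12:110783470-110783529 in mm9 and are given as the array's design lists them.
Neat1: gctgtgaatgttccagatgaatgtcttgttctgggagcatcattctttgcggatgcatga
Meg3: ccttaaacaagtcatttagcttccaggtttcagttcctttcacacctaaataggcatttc

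The 15 highest differences among known genes were led by Ggt1 (4.99), a glutathione-degrading enzyme, Saa1 (4.88), the metalloreductase Steap4 (4.61) and Saa3 (4.59). The acute phase protein gene Saa3 read 4.60 at ZT0 and 9.19 at ZT12 in ALDH-low cells, and 7.48 and 6.18 in ALDH-high cells. Saa1 (probe chr7:53996070-53996129, mm9) read 1.52 and 6.41 in ALDH-low cells, and 4.13 and 3.0 in ALDH-high cells. For both genes the ZT12 ALDH-low array was the highest of the 4 and the ZT0 ALDH-low array the lowest. Ggt1 read -3.07 and 1.92 in ALDH-low cells, and 2.32 and -2.30 in ALDH-high cells. Dach1 (4.44), Egr1 (4.36), the cytokine Il1f9 (4.31), the chemokine receptor Cxcr1 (4.28), Gpc3 (4.24), Fpr1 (4.22), Mtus1 (4.21), Dhrs9 (4.18), the potassium channel Kcnj2 (4.18), Entpd3 (4.17) and Rnf144a (4.17) completed the 15. All 15 had the opposite sign in ALDH-high cells, between -4.70 and -1.13, and 12 of them were within 2-fold at position 1_2 and 10 at position 1_1.

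The 15 lowest were the 5 globins, the lymphocyte genes Gzma, Vpreb3, Cd79b, Pou2af1, Gzmb, Il2rb and Gimap3, and others. Among these were Shank2 (-5.23), a scaffold of synapses, and Pole2 (-5.23), a DNA polymerase subunit whose other probe gave -0.11. Of the 15, 13 were measured on all 4 arrays, and all 13 were higher at ZT12 in ALDH-high cells, by 3.54 to 6.93. At position 1_2 only 5 of the 13 lay within 2-fold, and the lowest, Gzma, was at -3.33. Gzma, Gzmb, Il2rb, Gimap3, Cd79b, Shank2 and Pole2 were each at least 2-fold lower on the ZT12 ALDH-low array than on any other array. The globins and Vpreb3 were not.

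Genes detected on 1 array only gave bounds. The highest bounds upward were for Nlrp12, a regulator of inflammation in myeloid cells, at least 18.9-fold higher at ZT12, the muscarinic receptor Chrm3 (at least 14.8-fold), Pdzd3 (at least 13.8-fold), the potassium channel Kcnn3 (at least 13.0-fold), the transporter Slco4c1 (at least 12.3-fold), Amhr2 (at least 10.5-fold), Mustn1 (at least 9.63-fold) and Tex14 (at least 9.57-fold). All 8 were also above background on the ZT0 ALDH-high array and not on the ZT12 ALDH-high array. Downward, Cyp4a31 was at least 35.2-fold lower on its brightest probe, but another probe of the gene was above background on both arrays and differed by -0.34.

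Few genes moved the same way in both gates. Of the 3986 genes higher at ZT12 in ALDH-low cells, 3 were also at least 2-fold higher in ALDH-high cells, and of the 4737 lower, 17 were lower in both. The 3 higher genes, chosen after their values were seen, were Krt6a, Gpnmb, a glycoprotein of macrophages and melanocytes, and Tg. Gpnmb differed by 1.39 in ALDH-low and 1.83 in ALDH-high cells, and Tg by 1.44 and 1.64. Among the lower genes were the inducible heat shock genes Hspa1a and Hspa1b, chosen in the same way. Hspa1a read 8.02 at ZT0 and 6.88 at ZT12 in ALDH-low cells, and 9.35 and 7.96 in ALDH-high cells. Hspa1b read 6.52 and 5.22, and 7.83 and 6.35. Both were thus higher on the ZT0 array of each gate, with the ZT0 ALDH-high array the highest, and as near-identical copies they are not independent. Igfbp5, an insulin-like growth factor binding protein, differed by -1.34 and -1.44, and the adrenergic receptor Adra2b by -1.20 and -2.20.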

How the data were processed

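RNA of 4 sorted cell samples was labelled with Cy3 and hybridised to 4 one-colour Agilent arrays, 1 a group, per the labels. The deposited scanner files hold linear intensity values; the authors' background-subtracted processed signal was used, extracted with Feature Extraction 10.7.1.1 per the file headers and 9.5.1.1 per the submitters' processing notes. A deposited series table of linear intensity values, already normalized between arrays by the authors in a way not given in the sources used here, served as an alternative. Its columns had a Spearman correlation of 1.0 with the scanner values of their arrays and a median of 28.3 each, so it is not centred and its direction is that of the signal.

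Control spots were left out, and outlier spots were too unless every spot of the probe was flagged. With 59305 spots for 56605 probes, a flagged single spot thus stayed in. Keeping all outlier spots, 1 of the 11 alternatives, left the counts of calls unchanged and says little. Spots of a probe were averaged, and the log2 signal was scaled to the 75th percentile of each array with Python 3.11.15, pandas 2.3.3 and numpy 2.4.6. The normexp alternatives used limma 3.58.1 in R 4.3.3 with an offset of 50. The brightest probe stood for a gene, and a fold needed it well above background on both ALDH-low arrays. No p-value was computed, since each group had 1 array. A call is a difference of at least 2-fold. The steps were tested on differences planted in copies of the ZT0 ALDH-low array with small added noise. That test checks the calculation and not the error between real samples.

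The members and 44 gene lists (831 genes, 824 on the array by that name) were chosen with earlier results of these data known. Genes were named as the 15 highest and 15 lowest known symbols, the 8 largest bounds each way, all clock genes, Aldh1a1, Aldh1a3, Aldh3a1 and Wnt10a, and in each list up to 4 members in the direction of its median and up to 2 against it. Probe positions are those of the files (mm9), with no annotation of that build at hand to place them in exons or UTRs. RefSeq accessions were listed for 14322 array features, and the RefSeq gene table held 13552 of them. Some genes that the rule names are not reported here. The number of arrays limits the precision.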

Additional observations from a re-analysis of the deposited data

Results flagged for a closer look

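Gene lists whose members, measured on all 4 arrays, had a median past 2-fold one way in ALDH-low cells and past 2-fold the other way in ALDH-high cells drew attention. Such reversal was the rule among single genes. Of all genes higher in ALDH-low cells, 88.0% were lower in ALDH-high cells, and of those lower, 71.8% were higher, each past 2-fold. A list past 2-fold in ALDH-low cells would thus often meet this rule. The difference between the gates was not tested, since each has 1 array a time, and the slide positions ran opposite ways in them. Lists higher at ZT12 in ALDH-low cells were neutrophil markers (median 2.90, against -2.87 in ALDH-high cells, 28 genes), immediate early genes (2.27 and -2.46, 26 genes), inflammatory cytokines and NF-kB feedback (2.14 and -1.17, 22 genes), clock repressors (1.87 and -1.03, 8 genes), glucocorticoid response (1.66 and -1.28, 15 genes), pan-leukocyte genes (1.52 and -1.67, 12 genes) and interferon response genes (1.13 and -1.10, 22 genes). Lists lower at ZT12 in ALDH-low cells were B and plasma cell markers (-3.74 and 2.12, 12 genes), T and NK cell markers (-2.69 and 2.88, 21 genes), dendritic and MHC class II genes (-1.36 and 1.49, 14 genes) and luminal epithelial markers (-1.02 and 1.82, 16 genes). The medians over all members measured in ALDH-low cells differ slightly where some members were not above background on all 4 arrays.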

How the results depend on the processing

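No paired analysis was possible because each group holds 1 array, and for the same reason no replicate could be left out. The counts of genes at least 2-fold higher and lower, 4120 and 5127, became 7624 and 2733 with median scaling, 2443 and 3174 with normexp and quantile normalization, and 2663 and 7685 with the 75th percentile of probes well above background on both arrays. Without the background filter 11974 genes were lower, and among genes above the median level 1121. Of 44 lists, 8 had a median past 2-fold higher and 6 past 2-fold lower; the lower lists numbered 14 with the 75th percentile of probes well above background on both arrays and 11 with the spike-in slope. Over genes above the median level, the medians of the mast cell, basophil and eosinophil list and of the adipocyte list reversed, to 1.38 and 2.25. The rank correlation of the ALDH-low arrays was 0.859 over genes above background on all 4. The contrasts within a position, chosen after seeing the data, gave 1265 genes higher and 1953 lower at position 1_2, with 3 and 2 lists, and 569 higher and 336 lower at position 1_1, with 0 and 1 lists. The cause of these shifts was not tested.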
